A study of Mus musculus with 30 samples.

Results

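A set of transcripts that neurons switch on within minutes of strong activity were followed across the mouse brain, namely the immediate early genes Arc, Fos, Fosb, Junb, Egr1, Egr2, Egr4, Npas4, Nr4a1 and Nr4a3. They were taken by name and make up 10 of the 19737 genes in the expression table, and all 10 were measured in all 30 libraries. Each library held whole-brain RNA of 1 male C57BL/6N mouse. HT mice carried 1 disrupted copy of Arid1b, a subunit of the BAF chromatin remodeling complex, made by Cas9 nickase editing at exon 5 (Arid1b+/-), and WT littermates carried none. At postnatal day 10 (P10) 5 HT and 5 WT brains came from untreated mice. At P120 there were 4 groups of 5: WT-Veh, HT-Veh, WT-Flx and HT-Flx. Flx mice had received fluoxetine through the milk of dams whose drinking water held fluoxetine hydrochloride (0.1 mg/ml) and saccharin (0.2%) from P3 to P21, and Veh mice had nursed from dams given the saccharin alone. All 4 groups then drank normal water until P120, so treatment had ended long before the brain was taken. The question asked of the genes was how they differ between these groups and how far they move together from mouse to mouse.

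Immediate early genes are transcribed without new protein synthesis. Calcium entry and synaptic signaling activate kinases that phosphorylate factors already bound at their promoters and enhancers, among them CREB, which binds the cAMP response element (CRE), and the SRF complex, which binds the CArG box. Their messages are short-lived, so that in brain tissue their level is commonly read as a trace of recent neuronal activity. Arc is the effector of the set, a protein that acts at synapses on AMPA receptor trafficking. The others encode transcription factors: Fos, Fosb and Junb are subunits of AP-1, Egr1, Egr2 and Egr4 are zinc finger proteins, Npas4 is a neuronal bHLH-PAS factor, and Nr4a1 and Nr4a3 are orphan nuclear receptors. In bulk tissue a smaller number of active neurons and less RNA per neuron cannot be told apart.

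The value of a gene in a library was its normalized count, the read count divided by the authors' normalization factor. Read depth was not given, so no counting error can be attached to a single value. Arid1b, the targeted gene, lay between 1973 and 2616 in 14 HT libraries and between 2961 and 3392 in 14 WT libraries. The library labelled HT-Veh replicate 2 had 3361 and the library labelled WT-Veh replicate 2 had 2320.4, each within the range of the other genotype. The comparison of the vehicle groups therefore rests on the other 4 and 4 libraries. Other main results that use these 2 libraries are also given without them, with exceptions. The test of age by genotype, and at P120 the spread within groups, single pairs and slopes on Fos or Arc, are not given without both. The P120 libraries also differed in how the counts leaned with the GC content of the transcript. Relative to the mean of their age, log2 values rose by 0.29 to 0.71 per 10 percentage points of GC in the HT-Flx libraries and fell in the WT-Flx libraries, with slopes of -0.41 to -0.31, while the HT-Veh slopes ranged from -0.40 to 0.43 and the WT-Veh slopes from -0.27 to 0.19. At P10 the slopes ranged from -0.17 to 0.05. Markers of neurons, astrocytes, oligodendrocytes, microglia, vessels, choroid plexus and blood were above 0 in all 30 libraries. Comparisons were repeated after removing this dependence on GC content and length.

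The genes differ in base composition, and this matters where libraries lean with GC. The longest annotated coding transcript of Egr4 was 68.2% G and C, that of Junb 62.6%, that of Arc 58.95%, and the lowest was that of Nr4a3 at 48.4%. Levels per kilobase use the length of the same transcript, and which transcripts were in use was not measured. Positions are those of GENCODE M21 on GRCm38. Arc (ENSMUSG00000022602) lies at chr15:74669083-74672570, Fos (ENSMUSG00000021250) at chr12:85473890-85477273, Junb (ENSMUSG00000052837) at chr8:84974484-84978718 and Egr4 (ENSMUSG00000071341) at chr6:85511121-85513589. Nr4a1 (ENSMUSG00000023034) lies at chr15:101254269-101274795 and Nr4a3 (ENSMUSG00000028341) at chr4:48045153-48086447.

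Sequence upstream of the annotated start was read from RefSeq (GRCm38.p6) for 8 of the 10 genes. All 8 held the CRE core TGACG on one strand or the other within the 250 bases before a start, against 19.8% of 27025 genes. None held the full palindrome TGACGTCA, which contains that core and which 1.77% of genes had. Among these 8 genes and within these 250 bases, a CArG box was found in Egr2 alone, in 4 of its 5 annotated start windows, against 1.62% of genes. Arc and Egr1 were not searched, nor was sequence farther upstream, so a CArG box there would have been missed. The windows of 4 genes are printed because Egr2 holds both elements and because Fos, Nr4a1 and Nr4a3 include the gene that followed Arc most closely and the gene that stood apart. The last 3 were chosen after their values were seen. All 4 are on the plus strand, 5′ to 3′, and end at the base before the start. Capitals mark TGACG, its complement CGTCA and, in Egr2, the CArG box between them.
Fos, chr12:85473640-85473889: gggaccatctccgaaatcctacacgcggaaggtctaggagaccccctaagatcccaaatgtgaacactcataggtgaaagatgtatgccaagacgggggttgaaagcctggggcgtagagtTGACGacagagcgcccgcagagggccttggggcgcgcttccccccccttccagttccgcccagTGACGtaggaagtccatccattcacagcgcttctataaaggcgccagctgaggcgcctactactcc
Egr2, chr10:67537619-67537868: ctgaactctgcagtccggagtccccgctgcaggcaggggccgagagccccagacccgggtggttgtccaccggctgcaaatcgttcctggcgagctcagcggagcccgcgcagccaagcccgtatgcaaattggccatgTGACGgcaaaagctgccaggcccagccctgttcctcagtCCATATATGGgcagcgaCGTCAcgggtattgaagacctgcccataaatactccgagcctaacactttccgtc
Nr4a1, chr15:101266596-101266845: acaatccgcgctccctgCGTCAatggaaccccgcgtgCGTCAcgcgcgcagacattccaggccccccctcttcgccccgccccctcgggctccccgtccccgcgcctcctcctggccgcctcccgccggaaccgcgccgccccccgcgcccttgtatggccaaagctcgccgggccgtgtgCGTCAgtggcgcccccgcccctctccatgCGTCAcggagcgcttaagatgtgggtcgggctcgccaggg
Nr4a3, chr4:48045055-48045304: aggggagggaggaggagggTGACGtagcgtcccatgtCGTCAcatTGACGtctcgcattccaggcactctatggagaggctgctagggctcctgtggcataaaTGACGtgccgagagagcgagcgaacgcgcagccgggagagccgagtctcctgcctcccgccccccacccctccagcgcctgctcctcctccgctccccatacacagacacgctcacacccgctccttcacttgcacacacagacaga
Nr4a1 and Nr4a3 each hold 4 cores. In Nr4a1 they start at -233, -213, -69 and -40 from the start site, and in Nr4a3 at -231, -213, -205 and -147. Fos has cores at -129 and -66, and Egr2 at -111 and -55 around a CArG box at -72. A match of letters is a description of the window and no evidence of binding.

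Levels per kilobase of transcript placed Egr1 first at P10, with a mean normalized count per kilobase of 770.4 ± 166 in WT and 847 ± 125 in HT mice (SD, n = 5 each). Nr4a1 followed at 437 ± 89.2 in WT, and the lowest was Egr2 at 51.5 ± 12.1. At P120 Arc had moved to the top of all 4 groups, from 1873 ± 357 in WT-Flx to 2916 ± 959 in HT-Flx, and Egr2 was again lowest. Most neighbours in this order could not be separated, since the libraries of 6 of 9 adjacent pairs overlapped in each P10 group and those of 7 or 8 of 9 in the P120 groups. In the WT-Veh mice the steps without overlap were those from Nr4a1 (1333 ± 285) to Fos (647 ± 172) and from Egr4 (604 ± 143) to Nr4a3 (239 ± 13.4).

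**Figure D1:**
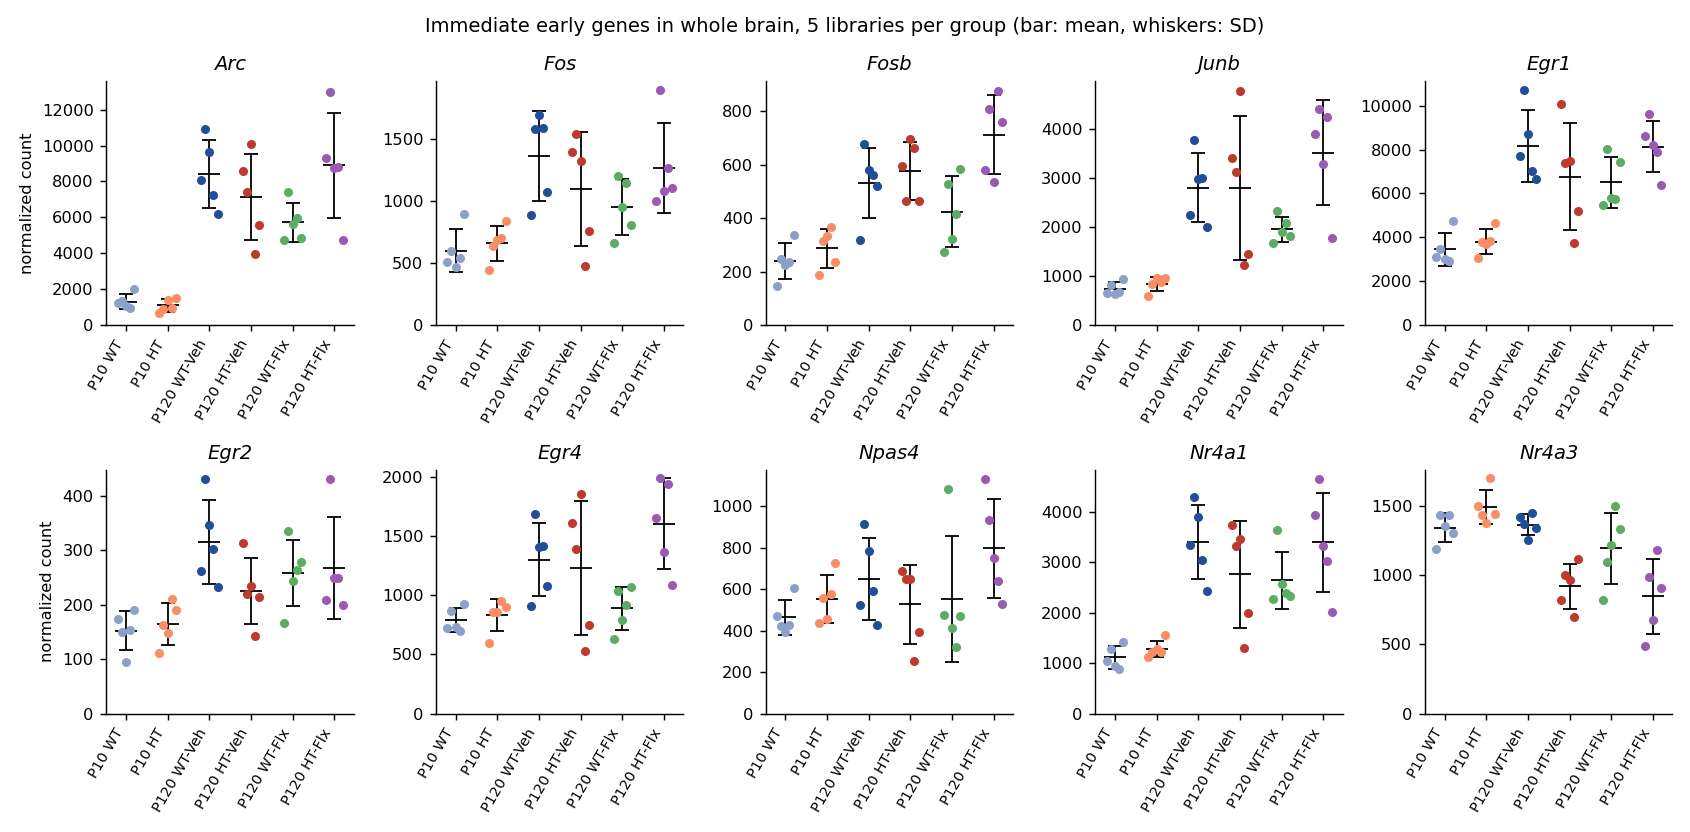
Normalized counts of the 10 immediate early genes in each library, by group (points, 5 libraries per group; horizontal bar, mean; whiskers, SD; linear axes from 0). Most genes sit low at P10 and spread widely between mice at P120, while Nr4a3 is lowest in the HT-Veh and HT-Flx groups.

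Adult WT brains held more of most of these messages than juvenile WT brains. In the comparison of WT-Veh at P120 with WT at P10, 8 of the 10 genes were higher and none was lower (limma, Benjamini-Hochberg adjusted p below 0.05 over 17927 genes), where 28.9% of all genes tested were higher. Their median log2 difference was 1.17 (all genes, -0.01). For 5 of them, Arc, Junb, Egr1, Egr2 and Nr4a1, no adult library overlapped a juvenile one, and 45.6% of all genes were separated in this way.

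Arc, the synaptic effector, rose furthest. The 5 WT juveniles had normalized counts of 1203, 1323, 1032, 930.4 and 1992, and the 5 WT-Veh adults 8054, 10923, 9616, 7268 and 6213. The lowest adult was thus above 3 times the highest juvenile, and the fitted difference was 2.72 on the log2 scale (SE 0.19, adjusted p = 1.26e-07 by limma), or 6.60-fold. Among the AP-1 subunits Junb rose by 1.90 (SE 0.16, adjusted p = 6.65e-07), from 661, 815, 629.5, 668 and 937 to 2252, 3786, 2974, 2998 and 2005, with no overlap. Fos had 506, 597, 465, 537 and 893 in the juveniles and 885, 1582, 1693, 1589.6 and 1068 in the adults. The lowest adult lay just under the highest juvenile, and Fos was higher by 1.18 (SE 0.20, adjusted p = 0.000266). Fosb was higher by 1.16 (SE 0.22, adjusted p = 0.000573).

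Of the zinc finger genes, Egr1 had 3117, 3487, 3010.0, 2929 and 4729.8 at P10 and 7696, 10723, 8698, 7040.4 and 6671 at P120, again without overlap. Its log2 difference was 1.24 (SE 0.15, adjusted p = 1.06e-05 by limma), that of Egr2 1.04 (SE 0.20) and that of Egr4 0.70 (SE 0.15, adjusted p = 0.00143). Npas4, the neuronal bHLH-PAS factor, missed the threshold at 0.44 (SE 0.19, adjusted p = 0.0575). The 2 nuclear receptors differed from each other. Nr4a1 had 1039, 1291, 938, 892 and 1414 in juveniles and 3348, 4301, 3894, 3041 and 2435 in adults, higher by 1.61 (SE 0.16, adjusted p = 2.49e-06). Nr4a3 had 1188, 1435, 1357, 1434 and 1302 in juveniles and 1419, 1367, 1252, 1448 and 1338 in adults. These ranges lay over one another, with a log2 difference of 0.02 (SE 0.07, adjusted p = 0.787).

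The same 8 genes were called after the GC and length correction (median 1.03) and without the library labelled WT-Veh replicate 2 (median 1.09). The mice differed in more than age, because the adults had nursed from saccharin-drinking dams and the juveniles had not. Age, this exposure and any library batch that goes with age cannot be told apart. Of 26 other rapid response genes measured, 18 were higher and 1 was lower, with a median of 0.54. Over all genes 28.9% were higher and 29.4% lower, and these shares also stand beside the lists that follow. The largest differences were those of the MAP kinase phosphatase gene Dusp1 (1.39), the clock gene Per1 (1.35), Ier5 (1.34) and the stress gene Gadd45b (1.00). Of 15 genes listed as delayed activity response genes, 4 were higher and 3 lower, with Ptgs2 at 1.49 and Adcyap1 at -0.87. Of 6 inducible heat shock genes 5 were higher, led by Hspa1b at 4.29 and Hspa1a at 3.11, and the summed level of that list was 74129 to 76632 in WT juveniles and 69306 to 94161 in WT-Veh adults. Of 6 choroid plexus markers 5 were higher, and their summed level moved from 11529 to 15770 up to 22888 to 34195. The part of these lists in the age difference of the 10 genes was not tested.

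The same step in HT mice, from untreated P10 to HT-Veh P120, gave 5 genes higher where 25.8% of 17989 genes were higher, and 1 gene lower where 25.3% were lower. Arc was higher by 2.69 (SE 0.26), Junb by 1.57 (SE 0.32), Fosb by 1.03 (SE 0.19), Nr4a1 by 1.01 (SE 0.25) and Egr1 by 0.77 (SE 0.22). The gene that fell was Nr4a3. Its 5 HT juveniles had 1501, 1435, 1377, 1701 and 1443 and its 5 HT-Veh adults 824, 1002, 965, 697 and 1114. Every HT adult was below every HT juvenile, with a log2 difference of -0.71 (SE 0.13, adjusted p = 0.000679 by limma; exact permutation test, two-sided p = 0.00794, the smallest that 5 against 5 allows). Without the library labelled HT-Veh replicate 2 the same 6 genes were called, and Nr4a3 stood at -0.75 (SE 0.14). After GC and length correction Nr4a3 was lower by -0.49 (SE 0.13, adjusted p = 0.00596), and Npas4 was also called lower, at -0.53 (SE 0.18, adjusted p = 0.024). With both changes together Egr1 lost its call (0.35, adjusted p = 0.0695).

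The test of whether the age difference depended on genotype called none of the 10 genes and 0% of 17978 genes (limma with adjustment over all genes), with 612 genes at an unadjusted p below 0.05. All 10 estimates were negative, with a median of -0.51 (all genes, 0.02), and without HT-Veh replicate 4 the median was -0.28. Nr4a3 had the smallest p of the 10, with a difference of -0.74 (SE 0.15, unadjusted p = 6.29e-05, adjusted p = 0.377). Its fall in HT and flat course in WT are therefore not shown to differ at the level of all genes.

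At P10 limma called none of the 10 genes between HT and WT mice and 4 of 17896 genes in all (0.0224%, adjusted over all genes), Arid1b among them, while 2249 genes had an unadjusted p below 0.05. In 9 of the 10 the HT mean was above the WT mean, with a median log2 difference of 0.15 (all genes, -0.01). That median was 0.25 without P10 HT replicate 1 and 0.27 without P10 WT replicate 5. Nr4a3 was the gene closest to a call. Its HT values of 1377 to 1701 overlapped its WT values of 1188 to 1435, and HT exceeded WT by 0.15 (SE 0.07, adjusted p = 0.383 by limma; exact permutation test, two-sided p = 0.0397). Arc was the exception in sign, at -0.26 (SE 0.22), with 694, 885, 1401, 969 and 1495 in HT mice. Among the marker lists 1 of 5 erythroid markers was lower in HT mice, Hbb-bs, and all 5 had negative differences (median -0.70). The differences were also negative for all 6 choroid plexus markers (median -0.34), all 6 oligodendrocyte markers (-0.26), all 6 endothelial and mural markers (-0.12) and all 6 heat shock genes (-0.08), none of them called, and the part of these lists was not tested.

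In vehicle adults the direction of Nr4a3 was the opposite. HT-Veh replicates 1, 3, 4 and 5 had 824, 965, 697 and 1114, and the same WT-Veh replicates 1419, 1252, 1448 and 1338. No HT library reached a WT one. The means were 900.1 ± 180 and 1364 ± 88.3 (SD, n = 4 each), a log2 difference of -0.62 (SE 0.17, unadjusted p = 0.00348), which did not pass adjustment over 17784 genes (adjusted p = 1.00 by limma; exact permutation test, two-sided p = 0.0286, the smallest that 4 against 4 allows). Groups without overlap were found for 1.04% of all genes, and for none of the other 9. With all 5 and 5 libraries Nr4a3 was -0.58 (adjusted p = 0.991 by limma; exact permutation test, two-sided p = 0.00794), and 0.191% of genes were without overlap. The library labelled WT-Veh replicate 2, whose Arid1b count lay in the HT range, had 1367 of Nr4a3, within the other WT-Veh libraries, and the library labelled HT-Veh replicate 2 had 1002, within the other HT-Veh libraries. The result with 5 and 5 libraries takes these 2 labels as given. Placed by their Arid1b counts instead, the groups would overlap, since 1367 lies above the WT-Veh value of 1252. No test was run with that placement.

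The other 9 genes did not separate the vehicle genotypes. Limma called 0 members and 0% of all genes, with 229 genes at an unadjusted p below 0.05, and Arid1b itself stood at -0.49 with an adjusted p of 1.00. In 9 of the 10 the HT-Veh mean was lower on the log2 scale, with a median of -0.29 (all genes, 0.01). In the values as deposited this median leaned on 1 mouse. HT-Veh replicate 4 had 3972 of Arc, 475 of Fos, 1232 of Junb, 527 of Egr4 and 1293 of Nr4a1, the lowest adult value of each, and without it the median was -0.03. After GC and length correction the median was -0.37 with this mouse included, and the corrected fit was not run without it.

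After early fluoxetine the mean differences from vehicle had opposite signs in the 2 genotypes for 9 of the 10 genes, Nr4a3 being negative in both, and none passed adjustment over all genes. After GC and length correction Fosb (-0.04), Arc (-0.03) and Egr1 (-0.0033) were negative in both genotypes as well, which left opposite signs in 6 of the 10. Each of the following comparisons shares its libraries with another, so the values stand side by side. In HT mice limma called 0 members and 0% of 17676 genes between HT-Flx and HT-Veh, with 4082 genes at an unadjusted p below 0.05, and 9 of 10 differences were positive with a median of 0.33 (all genes, 0.02). Npas4 had the largest. HT-Flx mice had 1131, 931, 751, 641 and 528 and HT-Veh mice 685, 646, 651, 252 and 395. The groups overlapped, with a difference of 0.64 (SE 0.28, adjusted p = 0.215 by limma; exact permutation test, two-sided p = 0.111). Without HT-Veh replicate 2 the median was 0.42, without HT-Veh replicate 4 it was 0.14, and after GC and length correction it was 0.10.

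In WT mice limma called 0 members and 0% of 17865 genes between WT-Flx and WT-Veh, with 4504 genes at an unadjusted p below 0.05, and all 10 differences were negative with a median of -0.35 (all genes, 0.00). Arc had 4738, 7437, 5604, 5982 and 4848 in WT-Flx, and 8054, 10923, 9616, 7268 and 6213 in WT-Veh. The highest treated mouse was above the lowest 2 vehicle mice, and the difference was -0.55 (SE 0.16, adjusted p = 0.0932 by limma; exact permutation test, two-sided p = 0.0238). Egr4 (-0.54), Fos (-0.51) and Junb (-0.49) followed, with adjusted p from 0.11 to 0.16. Leaving out WT-Veh replicate 5 brought Arc and Junb past the threshold and leaving out WT-Veh replicate 1 brought Egr4, while without WT-Veh replicate 2 the count stayed at 0 and the median was -0.26. Over all genes these fits called 624, 1400 and 0 genes in turn, so the added calls came with calls across the table. After GC and length correction the median was -0.24, and the GC slopes of WT-Flx libraries (-0.41 to -0.31) all lay below those of WT-Veh libraries (-0.27 to 0.19). All 7 cerebellar markers also had negative differences (median -0.66), with summed levels of 7130 to 47902 in WT-Flx and 11928 to 47487 in WT-Veh, as had all 6 heat shock genes, and their part was not tested.

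Between the fluoxetine-treated genotypes 5 of the 10 genes were called higher in HT-Flx than in WT-Flx (limma, adjusted over 17799 genes), in a comparison in which 33.1% of all genes were higher. The 5 were Egr4, Junb, Fosb, Arc and Egr1. For Egr4 the HT-Flx mice had 1647, 1984, 1362, 1933 and 1085, against 629.6, 1038, 788, 919.6 and 1069 in the WT-Flx mice. Every HT-Flx library was above every WT-Flx library, which held for 48.5% of all genes in one direction or the other, and the difference was 0.84 (SE 0.18, adjusted p = 0.0016 by limma; exact permutation test, two-sided p = 0.00794). Junb had 3899, 4402, 3282, 4248 and 1785 against 1673, 2331, 1891, 2079 and 1810.3, so that HT-Flx replicate 5 alone lay among the WT-Flx mice, with a difference of 0.79 (SE 0.21, adjusted p = 0.00579). Fosb stood at 0.78 (SE 0.21, adjusted p = 0.00649).

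Arc had 9303, 12983, 8748, 8784 and 4718 in HT-Flx, and HT-Flx replicate 5 was the lowest of all 10 mice. Its difference of 0.59 (SE 0.22, adjusted p = 0.0325 by limma) lost its call without any of HT-Flx replicates 1 to 4 or WT-Flx replicates 1, 3 or 5 (adjusted p from 0.0552 to 0.0826). Egr1 at 0.33 (SE 0.13, adjusted p = 0.0445) lost its call in 7 of the 10 leave-one-out fits. The count of called members was 3 without HT-Flx replicate 1, HT-Flx replicate 3 or WT-Flx replicate 3, and 7 without WT-Flx replicate 2. Nr4a3 lay in the other direction at -0.53 (SE 0.22, adjusted p = 0.0542), with 488, 985, 674, 1179 and 907 in HT-Flx mice against 821, 1092, 1220.4, 1499.6 and 1334 in WT-Flx mice. Nr4a3 was called lower with a minimum mean of 100, with median-of-ratios scaling, with a replicate block (with or without the correction), with all 4 adult groups in 1 fit, and without HT-Flx replicate 2, HT-Flx replicate 4 or WT-Flx replicate 1.

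None of the 5 calls was kept after the GC and length correction, and the median over the 10 genes moved from 0.50 to -0.07. Over all genes 6398 of 17799 were still called after the correction, where 11330 were called before it. Egr4 went from 0.84 to 0.12, Junb from 0.79 to 0.15 and Fosb from 0.78 to 0.14. Arc changed sign from 0.59 to -0.15 and Egr1 from 0.33 to -0.33. Fos kept 0.29 of its 0.41 and Nr4a3 -0.42 of its -0.53, both short of a call (adjusted p = 0.275 and 0.118 by limma). The GC slopes of these 2 groups did not overlap. Of 26 other rapid response genes 17 were higher and 3 lower in HT-Flx before correction, where 33.1% and 30.5% of all genes were. Their median was 0.50, with Tiparp at -1.26, Homer1 at -1.25, Ier2 at 1.05 and Dusp5 at 1.03. Of 15 delayed response genes 4 were higher and 9 lower, beside the same shares of all genes. Among them were the neuropeptide precursor Vgf at 1.1 and the prohormone convertase Pcsk1 at -1.07. All 7 cerebellar markers had positive differences (median 1.11), 2 of them called, and their part was not tested.

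**Figure D2:**
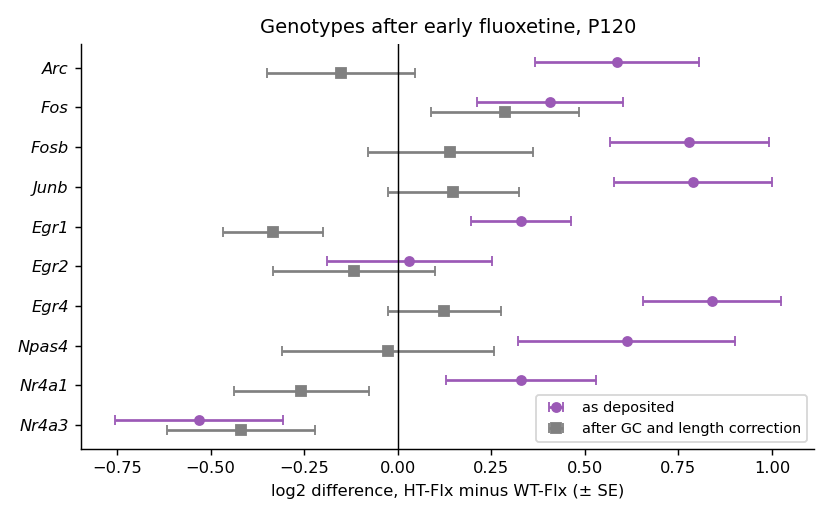
Log2 difference between HT-Flx and WT-Flx at P120 as deposited (circles) and after GC and length correction (squares), with SE whiskers, 5 libraries per group. Egr4, Junb and Fosb move from about 0.8 to below 0.2, and Arc and Egr1 cross 0.

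The test of whether the fluoxetine difference depended on genotype called 0 of the 10 genes, where 27.3% of 17796 genes were called (limma, adjusted over all genes); at an unadjusted p below 0.05 there were 8053 genes. All 10 estimates were positive, with a median of 0.76 (all genes, 0.01). The largest were those of Egr4 at 1.04 (SE 0.39, adjusted p = 0.0525), Npas4 at 0.96 (SE 0.44, adjusted p = 0.097), Junb at 0.94 (SE 0.43, adjusted p = 0.0963) and Arc at 0.87 (SE 0.35, adjusted p = 0.0613). Nr4a3 was at 0.05 (SE 0.27). Without replicate 2 of both vehicle groups the median was 0.76 with 0 members called, and after GC and length correction it was 0.31 with 0 called. Leaving out 1 library gave 0 to 3 members, the highest counts without HT-Flx replicate 5, HT-Veh replicate 1 or HT-Veh replicate 3. Over all genes those fits called 5467, 7667 and 6608 genes in turn. The count over all genes was itself 0 after the correction, without replicate 2 of both vehicle groups, and without any 1 of HT-Flx replicate 1, WT-Flx replicates 2 or 3, HT-Veh replicates 4 or 5 and WT-Veh replicates 2, 3 or 4. Among the other rapid response genes 12 of 26 were called positive before correction and none negative, where 15.8% and 11.5% of all genes were.

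The genes varied more between mice of 1 group than most genes did, with the exception of Nr4a3 at P10. At P120 the SD within groups on the log2 scale ran from 0.33 for Nr4a3 to 0.55 for Npas4, against a median of 0.28 over all genes. At P10 it ran from 0.12 for Nr4a3 to 0.44 for Arc, against 0.13. Within groups the libraries tended to be high or low for the whole set. With each gene centred on its group mean, all 10 genes were above the mean in HT-Flx replicate 2, HT-Veh replicate 3 and WT-Veh replicate 2, and none was in WT-Flx replicate 1. The mean deviation over the 10 genes was lowest in HT-Veh replicate 4, at -0.74, and highest in HT-Flx replicate 2 and HT-Veh replicate 3, both at 0.42. After GC and length correction the lowest was again HT-Veh replicate 4, at -0.49, and the highest WT-Flx replicate 2, at 0.44, while HT-Veh replicate 3 stood at 0.20 with 8 of the 10 genes above the mean.

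Pairwise correlation between mice was computed on these centred log2 values, over 20 libraries at P120 and 10 at P10. At P120 the median Pearson's r of the 45 pairs was 0.73 (median Spearman's rho 0.74), and 28 pairs, or 62.2%, had r of at least 0.5, against 14.3% of all gene pairs, whose median r was -0.01. All 28 pairs fell among the 8 genes other than Fosb and Nr4a3. The first principal component held 67.6% of the variance of the 10 genes. Without replicate 2 of both vehicle groups the median r was 0.73. After GC and length correction it was 0.58, with 30 pairs at or above 0.5 (66.7%, against 7.47% of all pairs). All pairs share the same mice and libraries and are not independent of one another.

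**Figure D3:**
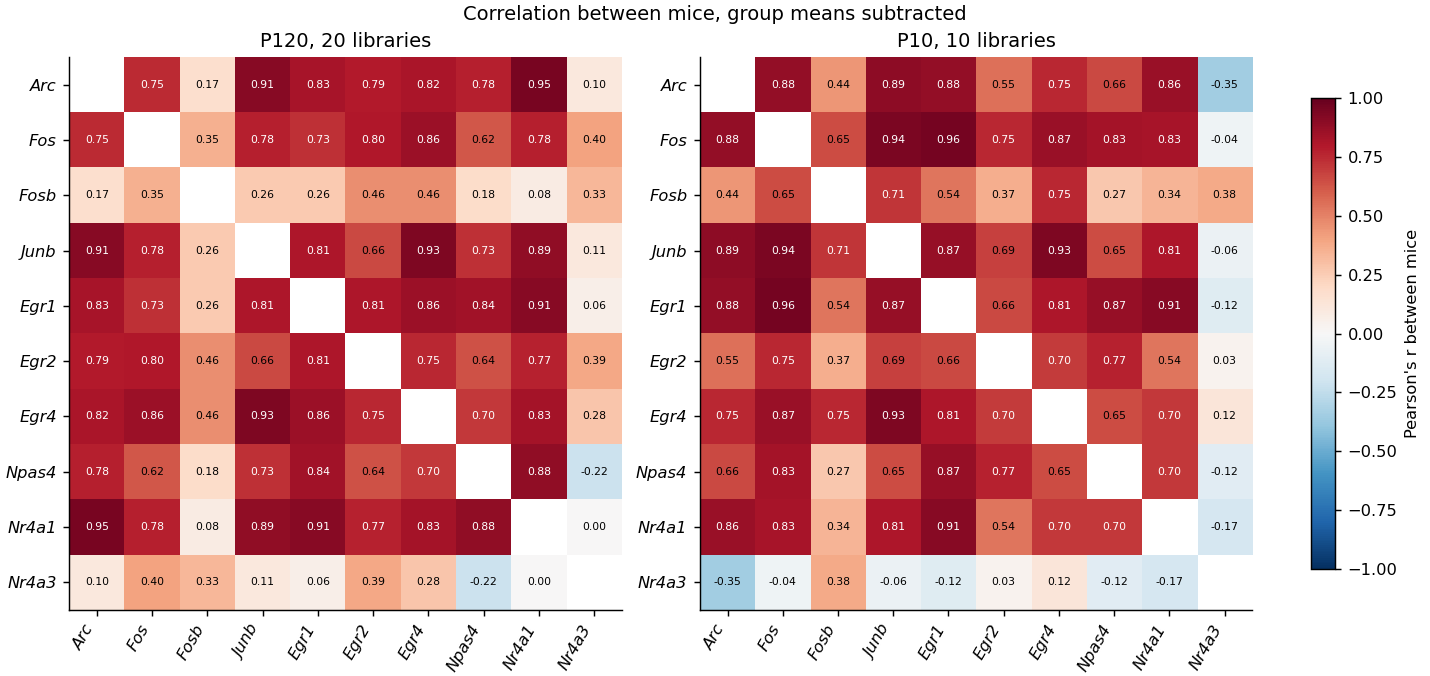
Pearson's r between mice for each pair of the 10 genes, as log2 normalized counts with the group mean subtracted, at P120 (20 libraries) and P10 (10 libraries). Arc, Fos, Junb, the Egr genes, Npas4 and Nr4a1 form a block of high r at both ages, from which Nr4a3 stands apart.

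The closest pair at P120 joined the effector and a nuclear receptor, Arc and Nr4a1, with r = 0.95 and rho = 0.94 (permutation test, unadjusted p = 1e-05 for each, the smallest that 100000 permutations can give). Without the 2 libraries farthest in Arc r was 0.92, and after GC and length correction it was 0.90. Junb and Egr4 had r = 0.93 and rho = 0.94 (permutation p = 2e-05 for each; r = 0.91 without 2 libraries). Arc and Junb had r = 0.91 and rho = 0.92 (permutation p = 1e-05 for each; r = 0.84 without 2 libraries). Fos followed Egr4 most closely, with r = 0.86 and rho = 0.82 (permutation p = 0.00021 and 0.00069; r = 0.76 without 2 libraries, 0.90 after correction), and Arc less so, with r = 0.75 and rho = 0.78 (permutation p = 0.00091 and 0.00058; r = 0.73 without 2 libraries, 0.55 after correction).

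Fosb and Nr4a3 followed the others less closely in the values as deposited. Fosb, although an AP-1 subunit as Fos is, had r = 0.35 and rho = 0.34 with Fos at P120 (permutation p = 0.123 and 0.148; r = 0.43 without 2 libraries), and its median r with the 9 others was 0.26. The highest r of Fosb were 0.46 with Egr2 (rho = 0.52, permutation p = 0.0544 and 0.0285) and 0.46 with Egr4 (rho = 0.52, permutation p = 0.03 and 0.0162), each 0.32 without 2 libraries. Nr4a3 had r = 0.10 and rho = 0.01 with Arc (permutation p = 0.747 and 0.985; r = 0.04 without 2 libraries) and r = 0.00 and rho = -0.11 with Nr4a1 (permutation p = 0.992 and 0.671; r = -0.17 without 2 libraries), and its median r with the others was 0.11. Its highest r was 0.40, with Fos (rho = 0.29, permutation p = 0.0789 and 0.238; r = 0.33 without 2 libraries). With the GC and length correction Nr4a3 had r = 0.56 with Egr4, 0.51 with Fos and 0.51 with Egr2, and its median r with the others was 0.32.

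**Figure D4:**
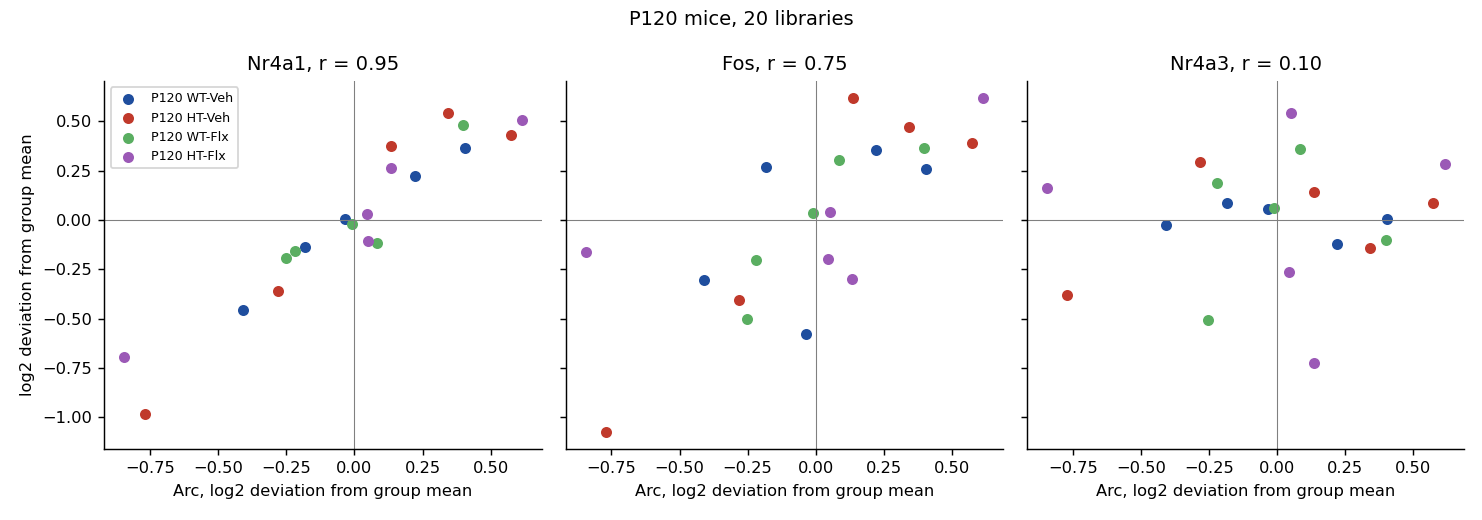
Deviation of Nr4a1, Fos and Nr4a3 from their group means against that of Arc in the 20 P120 libraries (log2 scale, points coloured by group). Nr4a1 runs along a line with Arc (r = 0.95), Fos is more scattered (r = 0.75), and Nr4a3 shows no slope (r = 0.10).

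A slope on Fos or on Arc, fitted across all genes within groups with limma, put these relations beside every other gene. On Fos at P120 only 3 of 17795 genes passed adjustment (0.0169%), with 4897 at an unadjusted p below 0.05. They were Egr4 with 0.86 log2 units per unit of Fos (SE 0.13, adjusted p = 0.0106) and the rapid response genes Dusp1 (0.59, adjusted p = 0.00407) and Ccn1 (0.95, adjusted p = 0.0376), while 6 more of the 10 genes, including Junb and Arc, had adjusted p of 0.0744. This count depended on single mice: it was 0 members of 0 genes called without HT-Veh replicate 4, and 4 members of 7 genes without HT-Flx replicate 5. It was 7 members without HT-Flx replicate 1, WT-Flx replicate 1 or WT-Flx replicate 2, where 3120, 1401 and 1513 genes were called in turn. On Arc at P120, 7 of the 9 other genes were called with a positive slope, where 11.8% of genes were. Nr4a1 had a slope of 1.00 (SE 0.09, adjusted p = 7.12e-06) and Junb of 1.15 (SE 0.13, adjusted p = 0.000162). Fos, Egr1, Egr2, Egr4 and Npas4 had slopes of 0.67 to 1.00, each with adjusted p = 0.0131. Fosb (0.15, adjusted p = 0.629) and Nr4a3 (0.08, adjusted p = 0.783) were not called. After GC and length correction Nr4a1 alone stayed called on Arc.

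At P10, where no mouse had been exposed to saccharin or drug, most of the genes again moved together. The median r of the 45 pairs was 0.70 (median rho 0.64), 32 pairs or 71.1% had r of at least 0.5 (12.7% of all gene pairs), and the first principal component held 68.8%. The highest pair was Fos and Egr1, with r = 0.96 and rho = 0.90 (exact permutation within groups over 14400 arrangements, unadjusted p = 0.0016 and 0.00229; r = 0.91 without the 2 libraries farthest in Fos). Fos and Junb had r = 0.94 and rho = 0.96 (exact permutation p = 0.000347 and 0.000556; r = 0.89 without 2 libraries). Other pairs leaned on few mice, as Arc and Npas4, whose r of 0.66 (rho 0.55, exact permutation p = 0.0563 and 0.129) was 0.07 without 2 libraries.

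Fosb was closer to the rest at P10 than at P120, with r of 0.75 to Egr4 and 0.71 to Junb, which were 0.54 and 0.44 without 2 libraries. Nr4a3 again stood apart, with a median r of -0.06 to the other 9. The difference between ages was not tested. In the limma fit on Fos at P10, 1 of 17895 genes was called (0.00559%), and it was Egr1 (0.69 log2 units per unit of Fos, SE 0.07, adjusted p = 0.0103), a call lost without P10 HT replicate 5 or P10 WT replicate 5 and joined by Arc and Junb without P10 WT replicate 3. On Arc at P10, Egr1, Fos and Junb were called where 0.246% of genes had a called positive slope (adjusted p from 0.041 to 0.0443).

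Other values moved with the set between mice. The mean deviation of the 26 other rapid response genes had r = 0.94 with that of the 10 genes at P120 and 0.76 at P10, both given as description. Against the pan-neuronal markers r was 0.52 and 0.60, against the oligodendrocyte markers 0.39 and 0.81, and against the heat shock genes 0.30 and 0.59, at P120 and P10 in turn. Against the astrocyte markers r was -0.21 and 0.73, against the thalamic and midbrain markers -0.14 and 0.66, and against the endothelial and mural markers 0.36 and 0.62. With the forebrain excitatory neuron markers r was 0.46 and -0.45, and with the cerebellar markers -0.26 and 0.56, so both changed sign between the ages. The delayed response genes did not follow, with r of -0.42 and 0.30. The GC slope of the library had r with single genes from -0.29 for Nr4a3 and 0.05 for Fosb to 0.75 for Egr1 at P120. In each of these r the genes share libraries, and the part of cell makeup and of GC slope in the shared movement was not tested beyond the correction above. The genes of any kind most like the mean of the 10 at P120 were Ccn1 (r = 0.91), Endov (0.89), Midn (0.88), Sik1 (0.87) and Mnt (0.87), of which Ccn1 and Sik1 were on the list of rapid response genes. At P10 they included Gas2l1, Atp2b2, Rab11fip4 and 9030025P20Rik (r from 0.93 to 0.96), none of them on that list. After GC and length correction the r of the genes named for P120 were 0.89, 0.75, 0.64, 0.75 and 0.62 in turn. Those of the genes named for P10 were 0.86, 0.86, 0.50 and 0.84.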

How the data were processed

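Whole-brain poly-A RNA of 30 mice was sequenced by the authors as paired-end reads. The submitters' processing notes name Salmon 1.1.0, DESeq2 1.30.1 and GRCm38. The deposited values are a normalized signal, gene-level read counts divided by the authors' normalization factors over both ages together; they are not whole reads, and depth is unknown. Library medians lay between 352 and 415. Symbols, GC content and length came from GENCODE M21 and matched 99.92% of genes. Values were analysed as log2(value + 1), for genes with a mean of at least 10 in the libraries compared, with limma 3.58.1 (trend, Benjamini-Hochberg threshold 0.05) in R 4.3.3, fitted on the 2 groups compared, or on 4 for the interactions. Fold changes are on that scale and understate low genes. Correlations used values centred on group means, within each age. The correction removed, in each library, the dependence on GC content and length by 10 by 10 bins of genes. Scripts were tested on simulated data. Replicate numbers were not treated as pairs, since no comparison had every same-number correlation above 0.1. This rule cannot exclude a pairing or batch that follows the number. For HT-Flx against HT-Veh the mean same-number correlation was 0.18, and that between other numbers was -0.04. The p-values measure the spread between these libraries, 1 mouse each. The gene set and the lists were chosen with earlier results of these data known; named genes follow a rule of all 10 members, up to 4 called genes a list, and the 5 closest genes, of which 1 is not reported here. HT-Veh and WT-Veh replicate 2 were left out of the comparison of vehicle genotypes. Alternatives were other scaling, filters, no trend, a replicate block, the correction and each library left out. P3 and medial prefrontal cortex libraries were not analysed here.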

Additional observations from a re-analysis of the deposited data

Results flagged for a closer look

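Within groups of 5 libraries, 4 of the 60 sets of member values had a single library far from the rest; about 5% of sets would by chance. Egr2 in HT-Flx replicate 2 was 431, with the nearest of the other HT-Flx mice at 250.2. Npas4 in WT-Flx replicate 2 was 1079.5, with the nearest at 476, and Nr4a1 in the same library was 3633, with the nearest at 2566. Egr4 in P10 HT replicate 1 was 596, below the nearest at 857. HT-Flx replicate 2 and WT-Flx replicate 2 had the highest mean deviation of the 10 genes in their groups, at 0.42 and 0.39.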

How the results depend on the processing

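Counts of members called and median correlations stayed close to the reported value in 229 alternatives and did not in 32. For HT-Flx against HT-Veh the fit with a replicate block called 1 member (Npas4), and it called 1355 genes over all where the main fit called 0. For HT-Flx against WT-Flx, limma without the trend called 3, the GC and length correction 0, the replicate block with that correction 2 (Egr1 and Nr4a3, both lower), and leaving out single libraries 3 to 7. Over all genes 11342 were called without the trend, 6398 with the correction, and 5276 with block and correction together. With the correction, Arc was -0.15 and Egr1 -0.33, with or without the block. For the interaction a minimum mean of 100 called 1, with 5454 genes called over all, and leaving out single libraries 0 to 3. WT-Flx against WT-Veh gave 0 to 2 without single libraries, and adult against juvenile WT mice 8 to 9. On Fos at P120 the correction called 2, Arc in its place 7, the replicate block 6, and single libraries left out 0 to 7; at P10 a minimum mean of 100 called 2, no trend 0, the correction 0, Arc 3, the block 0, and single libraries left out 0 to 3. The median r was 0.58 at P120 after correction, and 0.64 to 0.76 at P120 and 0.54 to 0.76 at P10 without single libraries. The cause was not tested. The numbers were not treated as pairs, and the block changed no other count of members by over 1.5 times. Without single libraries the other counts of members stayed at 0. Unknown depth and 5 mice a group limit what small differences could be seen.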

Other observations

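Of 21 upstream kinases, transcription factors and cofactors, a list that also holds the MEF2-repressing deacetylase Hdac5, 13 were higher and 4 lower in WT-Veh adults than in WT juveniles (28.9% and 29.4% of all genes), with Hdac5 at 1.3, Mef2c at -1.28, Camk4 at -1.19 and Camk2a at 1.13 on the log2 scale (adjusted p below 0.05 by limma). In HT mice 9 were higher and 3 lower over the same step (25.8% and 25.3% of all genes). Between HT-Flx and WT-Flx 8 were higher and 9 lower (33.1% and 30.5% of all genes), with Creb1 at -1.25, Mef2a at -1.01, Hdac5 at 0.97 and Mef2c at -0.92, before the GC and length correction. Of 8 glucocorticoid response genes 6 were higher and 1 lower in WT-Veh adults than in WT juveniles, with Plin4 at 4.63 and Mt2 at 1.25 higher and Cdkn1a lower at -1.01.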
